A study of Homo sapiens with 48 samples.

Results

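The histone variant H2A.Z was knocked out in A382 cells, an established human glioblastoma line, with either of 2 guide RNAs, and polyadenylated RNA was sequenced 9 days after lentiviral infection. There were 2 libraries of cells carrying guide sgH2AZ_1, 2 of cells carrying sgH2AZ_2 and 2 of cells carrying the control guide sgNeg4, so 6 of the 48 libraries of the series were used. They were chosen because the deposited expression table holds these 6 columns as a block of its own. The line, the medium and the day were the same for all 6, and no other agent is named in the labels. The labels give no selection of single-cell clones, no statement that replicates came from separate cultures, and no indication of which of the H2A.Z genes the guides cut. The p-values therefore rest on the spread among 6 libraries, a spread that may be technical only, and a single control guide stands for all controls. Of 19102 genes in the table, 11087 had at least 1 FPKM (fragments per kilobase of transcript, scaled to library depth) in at least 2 of the 6 libraries and were tested. A gene under 1 FPKM in all libraries of 1 group entered only through the other group, so its call supports no direction. Such genes remain in the counts and shares given below.

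H2A.Z replaces canonical H2A in nucleosomes beside transcription start sites and at enhancers, and it is loaded by the SRCAP and EP400/TIP60 exchange complexes and removed by INO80 and the chaperone ANP32E. Humans have a pair of H2A.Z genes, H2AFZ and H2AFV, whose proteins are nearly identical. The study set this knockout beside loss of the subunits of the EP400/TIP60 complex. Among the genes that differed here were genes of the integrated stress response, in which kinases that sense amino acid shortage, endoplasmic reticulum stress, heme shortage or viral RNA phosphorylate the initiation factor eIF2, general translation drops, and translation of the transcription factor ATF4 increases. ATF4 binds DNA with C/EBP proteins and is known to activate genes for amino acid synthesis, import and loading onto tRNA.

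Between 10806 and 10850 genes reached 1 FPKM in the H2AZ libraries, against 10795 and 10870 in the sgNeg4 libraries. At 1 FPKM a kilobase of transcript stood for 6.47 to 7.48 fragments in the H2AZ libraries, against 6.67 in sgNeg4 replicate 1 and 4.28 in sgNeg4 replicate 2, so genes near 1 FPKM rest on few fragments. Replicate 1 of sgNeg4 and replicate 1 of sgH2AZ_1 stood apart from the other 4 by transcript length. In the longest 10% of genes their median log2 deviations from the gene means were -0.11 and -0.08, against 0.02 to 0.09 in the other 4 libraries. Over the tested genes the 2 sgNeg4 libraries differed by a median of 0.209 log2 units (r = 0.9855). Pairs of an sgNeg4 and an H2AZ library differed by 0.164 to 0.245. The controls thus lay about as far from each other as from the knockouts. The glioma line markers VIM (7563 to 11300 FPKM), CD44 (423 to 538), SOX9 (58.4 to 64.7), SOX2 (40.0 to 79.0) and EGFR (3.61 to 6.54) were present in all 6, whereas NES stayed under 1 FPKM, GFAP reached at most 0.151 and OLIG2 was listed at 0 in every library. The labelled cell type is thus carried by mesenchymal and SOX markers, without the defining glial markers GFAP and OLIG2.

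H2AFZ, the gene of the main H2A.Z protein, had 120 and 125 FPKM in the sgH2AZ_1 libraries and 116 and 120 in the sgH2AZ_2 libraries, against 767 and 528 in the sgNeg4 libraries. All 4 knockout values lay far below both controls, and the guides reached the same level. The mean was 120 ± 3.48 FPKM in H2AZ cells (SD, n = 4) and 647 ± 169 in sgNeg4 cells (SD, n = 2), which leaves 18.6% of the control mRNA. On the log2(FPKM + 1) scale used throughout, H2AFZ fell by 2.40 ± 0.14 (SE; limma adjusted p = 3.27e-05), the largest fall of all 11087 genes. The exact two-sided permutation test over the 6 libraries gave p = 0.0667, the smallest that 4 against 2 allows. In bulk RNA, fewer cells with the transcript and less transcript per cell cannot be told apart, and the mRNA does not measure the protein. H2AFZ has processed pseudogene copies, so a part of its reads may have been assigned to or from them.

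The second H2A.Z gene, H2AFV, had 91.0, 85.2, 83.6 and 80.8 FPKM in the H2AZ libraries, against 107 and 84.6 in sgNeg4. Its groups overlapped, and it did not pass the test (-0.16 ± 0.11, adjusted p = 0.46). The DNA damage variant H2AFX had 56.4, 45.3, 47.0 and 41.3 FPKM in H2AZ libraries, against 58.3 and 48.0 in sgNeg4 (-0.16, adjusted p = 0.537). The macroH2A gene H2AFY had 140, 131, 127 and 143 FPKM, against 177 and 149 (-0.26, adjusted p = 0.187). Its relative H2AFY2 had 12.1, 10.8, 10.9 and 11 FPKM, against 21.0 and 13.4, and missed the threshold (-0.54 ± 0.15, adjusted p = 0.0686). Among 23 genes of the exchange complexes and chaperones, from EP400, SRCAP and INO80 to ANP32E, limma called 0 (2 had an unadjusted p under 0.05), and the changes ran from -0.41 in MORF4L1 to 0.22 in YEATS4. Without sgNeg4 replicate 2, 3 of the H2A variant genes and 1 of the exchange genes were called lower.

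**Figure D1:**
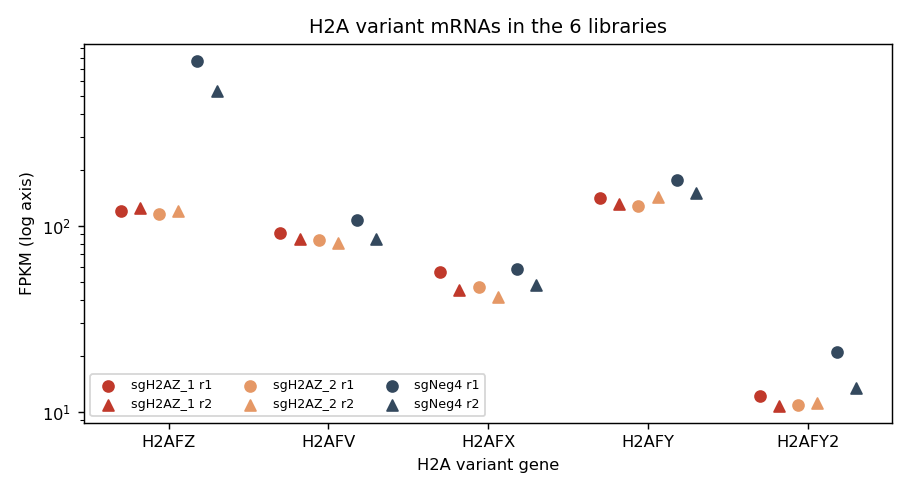
FPKM (log axis) of the 5 tested H2A variant genes in each library: red and orange for the sgH2AZ_1 and sgH2AZ_2 libraries, dark grey for sgNeg4, circles for replicate 1 and triangles for replicate 2. H2AFZ sits at 116 to 125 FPKM in the 4 H2AZ libraries against 528 and 767 in sgNeg4, while the points of H2AFV and H2AFX overlap.

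The 4 H2AZ libraries were set against the 2 sgNeg4 libraries with limma's moderated test, and genes count as called where the p-value, adjusted over the whole table by Benjamini-Hochberg, is under 0.05. By this rule 667 genes (6.02% of those tested) differed, 288 of them higher (2.60%) and 379 lower (3.42%) in H2AZ cells. These shares are the background for the list counts below. Limma gave an unadjusted p under 0.05 for 2338 of the 11087 genes, which is the background for the unadjusted counts. Most changes were modest: 35 of the higher and 48 of the lower genes changed by at least 1 log2 unit, and 218 and 308 by at least 0.5. In each of the 667 genes the 4 H2AZ libraries lay on one side of both sgNeg4 libraries. Among all tested genes 13.4% lay wholly above and 15.4% wholly below, so separation on its own is common here. As every called gene was separated, separation of a called gene adds nothing to its call. The median change of all genes was -0.0094, and the median transcript length was 1742.5 bases in genes called higher and 1745 in genes called lower, against 1785.5 in all tested genes. The number of calls depended on single libraries: it was 320 without sgH2AZ_1 replicate 2, 348 without sgH2AZ_2 replicate 1, 365 without sgH2AZ_2 replicate 2 and 1183 without sgNeg4 replicate 2.

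The guides did not differ detectably from each other. In the direct test of sgH2AZ_1 against sgH2AZ_2, limma called 0 of 11087 genes (0.00%). Its spread came from all 3 groups, and the sgNeg4 pair differed most (median 0.209 log2 units, against 0.146 and 0.098 within the guides). With 2 libraries a guide, 0 calls therefore do not show that the guides acted alike. The smallest adjusted p was 0.973, and 301 genes (2.71%) had an unadjusted p under 0.05. The 667 calls take the 4 H2AZ libraries as replicates of 1 condition. When each guide had its own level and their mean was set against sgNeg4, 552 genes were called (247 higher, 305 lower). Of these, 533 were among the 667, and ATF4 was among the genes that lost the call. With 2 libraries a guide, sgH2AZ_1 alone gave 232 calls against sgNeg4 (2.09%; 107 higher, 0.965%; 125 lower, 1.13%) and sgH2AZ_2 alone 404 (3.64%; 165 higher, 1.49%; 239 lower, 2.16%). Both counts use the same sgNeg4 pair and are therefore not independent. Without sgNeg4 replicate 2 they reached 710 for sgH2AZ_1 and 1420 for sgH2AZ_2, and without sgNeg4 replicate 1 sgH2AZ_1 had 396. For sgH2AZ_1 there were 38 calls without its own replicate 1, 29 without its replicate 2 and 131 without either one of the sgH2AZ_2 libraries. For sgH2AZ_2 there were 39 without its own replicate 1, 64 without its replicate 2, and 220 or 232 without sgH2AZ_1 replicate 1 or 2. Where this left 1 library in a group, that library was assumed to vary like the others.

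**Figure D2:**
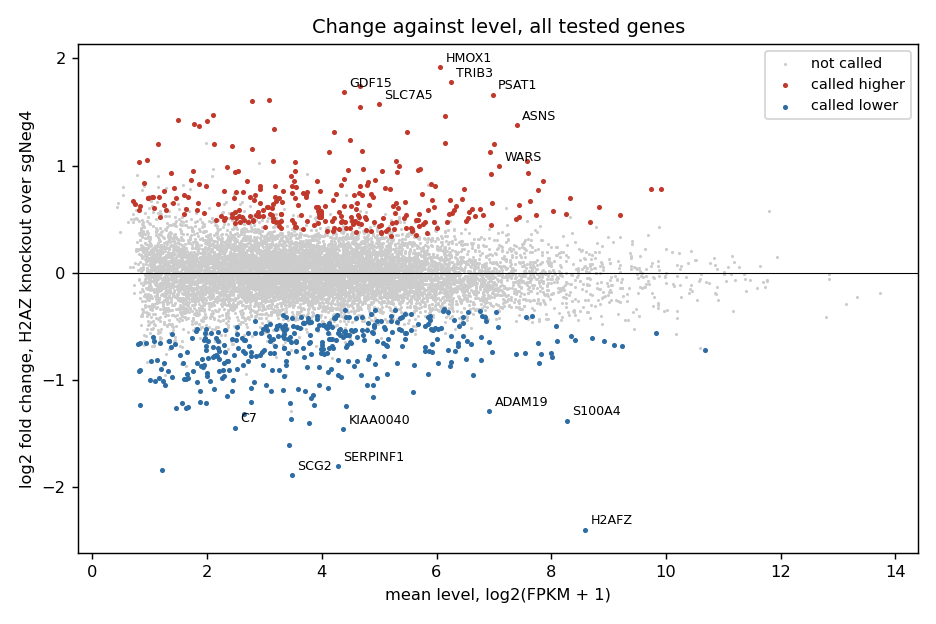
Log2 fold change of H2AZ knockout over sgNeg4 against mean level, log2(FPKM + 1), for each tested gene; red points were called higher, blue lower, and grey were not called. The 288 higher and 379 lower genes spread over the range of levels, and H2AFZ is the lowest point at -2.40.

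Most tested genes of the integrated stress response and of amino acid supply were called higher. Of 65 tested genes on 4 lists (regulators and secreted targets, amino acid synthesis, amino acid transporters and cytosolic tRNA synthetases), 47 were called higher and 1 lower. The 47 include CTH, which passed the filter only through H2AZ libraries. Over all tested genes 2.60% were called higher and 3.42% lower. Among the 20 regulators and secreted targets 18 were called higher, with a list median of 0.96 against -0.0094 for all genes. This count was 17 without any one of the 6 libraries, 13 with the sgH2AZ_1 libraries only and 14 with the sgH2AZ_2 libraries only.

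TRIB3, a pseudokinase induced by ATF4 that restrains it in return, had 124, 117, 113 and 113 FPKM in the H2AZ libraries, against 35.6 and 31.2 in sgNeg4 (1.78 ± 0.10, adjusted p = 2.33e-05). CHAC1, which degrades glutathione, had 126, 101, 97.6 and 90.3 FPKM, against 35.6 and 37.8 (1.47 ± 0.13, adjusted p = 0.000261). NUPR1, a small stress-induced nuclear protein, had 43.1, 40.7, 33.2 and 36.1 FPKM in H2AZ libraries, against 11 and 10.4 in sgNeg4 (1.74 ± 0.12). In these 3 genes the lowest knockout library stood well above the higher control. Upstream in the pathway the differences were smaller. ATF4 itself, which is mainly controlled by translation, had 771, 674, 650 and 693 FPKM in H2AZ libraries, against 528 and 435 in sgNeg4 (0.54 ± 0.13, adjusted p = 0.0429). It was called with both sgNeg4 libraries and all 4 H2AZ libraries but lost the call without any one library other than sgNeg4 replicate 1 (highest adjusted p over all alternatives 0.352).

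The transcription factors that act with or after ATF4 rose as well. DDIT3 (CHOP), the stress factor linked to cell death, had 169, 172, 153 and 169 FPKM, against 94.9 and 59.8 in sgNeg4 (1.12 ± 0.16, adjusted p = 0.00367). CEBPB rose by 1.14 ± 0.11, ATF5 by 0.95 ± 0.11, JDP2 by 0.85 ± 0.10 and CEBPG by 0.65 ± 0.09. PPP1R15A (GADD34), the phosphatase subunit that reverses eIF2 phosphorylation, rose by 0.69 ± 0.10, and EIF4EBP1, an inhibitor of cap-dependent translation, by 0.77 ± 0.15. SESN2 (1.24 ± 0.09) and DDIT4 (0.97 ± 0.10), which restrain the growth kinase mTORC1, rose too. ATF3, often a marker of the same response, had 10.6, 10.7, 12.3 and 12.2 FPKM in H2AZ libraries, against 11.3 and 9.52 in sgNeg4. Its groups overlapped (0.12 ± 0.11, adjusted p = 0.594), and the ER oxidase ERO1A likewise did not pass (0.12, adjusted p = 0.549).

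Secreted factors of the response were among the largest rises of all genes. GDF15, a stress hormone that acts on the brainstem, had 33.4, 30.7, 29.6 and 30.1 FPKM in H2AZ libraries, against 9.01 and 8.87 in sgNeg4 (1.68 ± 0.09, adjusted p = 2.33e-05). INHBE, an inhibin beta chain, had 9.45, 8.74, 9.68 and 9.58 FPKM, against 2.5 and 2.31 (1.6 ± 0.10). STC2, a stanniocalcin, had 33.0, 38.0, 39.5 and 36.9 FPKM, against 11.7 and 12.2 (1.54 ± 0.10). For all 3 the replicates within each group lay close together and the groups were wide apart. The angiogenic factor VEGFA rose by 0.74 ± 0.10 and the lipoprotein receptor VLDLR by 0.81 ± 0.15.

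Of 13 tested genes of amino acid synthesis and one-carbon metabolism, 11 were called higher and 0 lower (median 0.62; 12 higher and 0 lower at an unadjusted p under 0.05 in limma). PSAT1, of the serine pathway, had 185, 196, 190 and 191 FPKM in H2AZ libraries, against 58.2 and 60.8 in sgNeg4 (1.66 ± 0.09, adjusted p = 2.33e-05). ASNS, which makes asparagine, had 248, 237, 230 and 252 FPKM, against 101 and 84.9 (1.38 ± 0.10, adjusted p = 0.000123). Both sets of replicates were tight. The first enzyme of serine synthesis, PHGDH, rose by 1.04 ± 0.10 (282, 255, 247 and 245 FPKM, against 124 and 124) and the last, PSPH, by 0.56 ± 0.09. The mitochondrial folate enzymes MTHFD2 (1.20 ± 0.09), SHMT2 (0.69 ± 0.11) and MTHFD1L (0.48 ± 0.11) rose, as did the transaminases GPT2 (0.63 ± 0.10) and GOT1 (0.42 ± 0.09). The transsulfuration enzymes CBS (0.46 ± 0.09) and CTH (0.62 ± 0.15, at 0.862 to 1.34 FPKM in H2AZ libraries, against 0.31 and 0.477) completed the 11. CTH passed the filter only through H2AZ libraries, so its call, though counted among the 11, does not support a rise. PCK2, the mitochondrial enzyme that turns oxaloacetate into phosphoenolpyruvate, rose by 1.31 ± 0.12. The count was 7 when any one of sgH2AZ_1 replicate 2, sgH2AZ_2 replicate 1 or sgH2AZ_2 replicate 2 was left out, 4 with the sgH2AZ_1 libraries only and 5 with the sgH2AZ_2 libraries only.

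Among 12 tested amino acid transporters 6 were called higher and 1 lower (median 0.52). SLC7A5, which carries leucine and other large neutral amino acids, had 48.8, 47.2, 47.2 and 42.7 FPKM in H2AZ libraries, against 12 and 18.5 in sgNeg4 (1.57 ± 0.15, adjusted p = 0.000377). Its heavy chain partner SLC3A2 rose by 0.63 ± 0.11. The glutamine and neutral amino acid carriers SLC1A5 (0.93 ± 0.11), SLC38A1 (0.82 ± 0.14) and SLC1A4 (0.74 ± 0.12) and the cationic carrier SLC7A1 (0.71 ± 0.14) rose. SLC6A6, which carries taurine, was the one called lower (-0.42 ± 0.11, adjusted p = 0.0476). The cystine carrier SLC7A11, a target of both ATF4 and NRF2, had 24.7, 29.8, 32.4 and 28.3 FPKM in H2AZ libraries, against 24.1 and 26.3 in sgNeg4, and did not pass (0.18 ± 0.12, adjusted p = 0.417). Without sgNeg4 replicate 1 there were 4 higher and 1 lower, and without any one of the other 5 libraries the fall of SLC6A6 was no longer called. Either guide's libraries alone gave 3 higher and 0 lower.

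Of the 20 cytosolic aminoacyl-tRNA synthetases, which load amino acids onto tRNA, 12 were called higher and 0 lower (median 0.44; 13 higher and 0 lower at an unadjusted p under 0.05). The tryptophan enzyme WARS had 177, 181, 179 and 183 FPKM in H2AZ libraries, against 94.7 and 85.2 in sgNeg4 (1.00 ± 0.09, adjusted p = 0.000377). GARS (0.85 ± 0.11), IARS (0.83 ± 0.12), NARS (0.62 ± 0.11), AARS (0.60 ± 0.09), SARS (0.57 ± 0.10), YARS (0.55 ± 0.10), CARS (0.53 ± 0.10), MARS (0.52 ± 0.09), EPRS (0.47 ± 0.10), VARS (0.41 ± 0.10) and LARS (0.37 ± 0.09) were the other 11. The 8 that did not pass ran from -0.16 in QARS upward. The count was 5 without sgH2AZ_1 replicate 2, 8 without sgH2AZ_2 replicate 2 and 8 without sgNeg4 replicate 1. It was 1 with the sgH2AZ_1 libraries only and 4 with the sgH2AZ_2 libraries only.

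**Figure D3:**
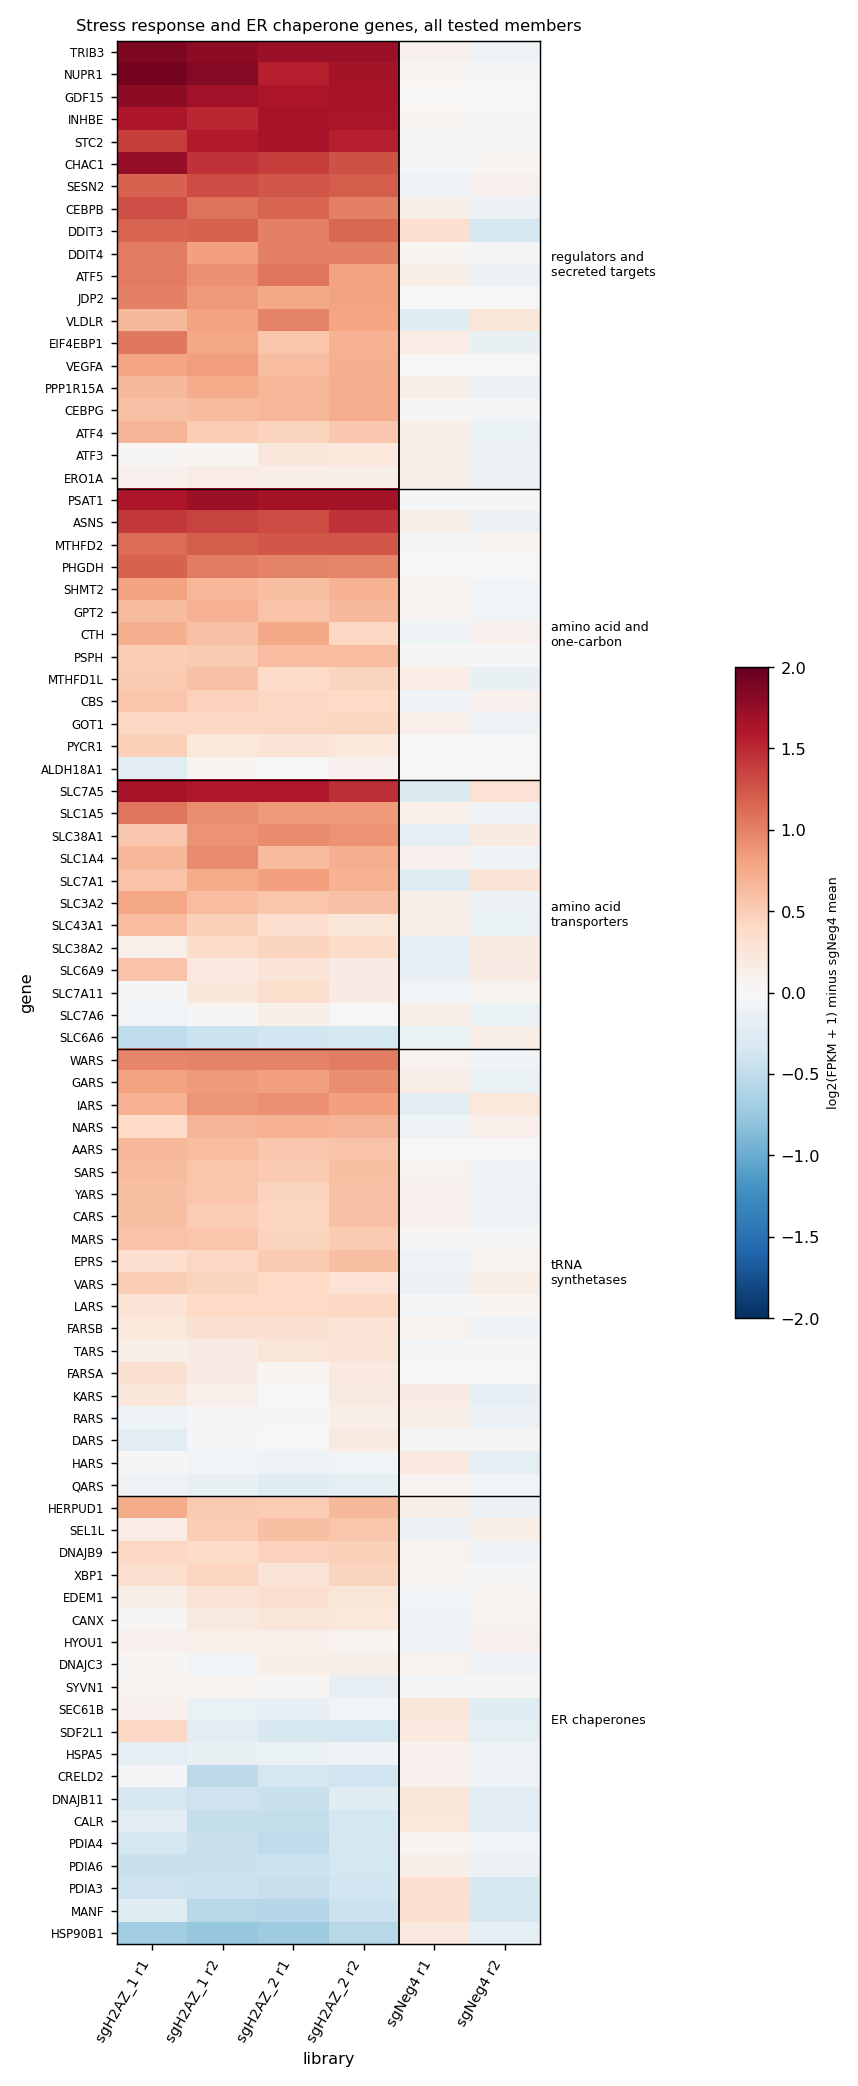
Log2(FPKM + 1) minus the sgNeg4 mean (red higher, blue lower) for every tested member of the 4 stress and amino acid lists and of the ER chaperone list; columns are the 4 H2AZ libraries and then the 2 sgNeg4 libraries. The H2AZ columns are red through most of the first 4 blocks. The regulator block runs from TRIB3 at 1.78 down to ATF3 and ERO1A at 0.12, which were not called. The amino acid, transporter and tRNA synthetase blocks each reach below 0, as far as SLC6A6 at -0.42. The ER chaperone block is mixed, ending in HSP90B1 at -0.68.

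The promoters of these genes were searched for the C/EBP-ATF response element, the composite site that ATF4 and a C/EBP protein bind together, by its core letters TGATGNAA on both strands. The windows were RefSeq's in GRCh38.p14, and only the 250 bases before each annotated start were searched. The deposited table gives no coordinates and was made on hg19. Of the 47 called higher genes on the 4 lists, 35 had a RefSeq promoter, and 9 of these (25.7%) held the core, against 2.31% of the 9235 tested genes with a promoter. Over all genes called higher the share was 7.21% of 222, and over all called lower 2.67% of 300. The 222 include the 35, so 9 of their 16 genes with the core come from these lists. The lists were built around a response that ATF4 is known to drive, with results known. No share was taken for list members not called, so the 25.7% says nothing about the knockout. The stretches around the core in the 6 of those 9 genes with the smallest adjusted p are shown because they let the shared letters be seen. Each reads 5′ to 3′ on the gene's own strand, with the core in capitals. It reads TGATGNAA in ASNS, SLC1A5, JDP2 and CEBPG and its reverse complement in CHAC1 and IARS.
ASNS (chr7:97872443-97872502, minus strand): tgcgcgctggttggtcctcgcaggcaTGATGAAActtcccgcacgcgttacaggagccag
CHAC1 (chr15:40953236-40953295, plus strand): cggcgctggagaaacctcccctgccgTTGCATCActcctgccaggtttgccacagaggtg
SLC1A5 (chr19:46784878-46784937, minus strand): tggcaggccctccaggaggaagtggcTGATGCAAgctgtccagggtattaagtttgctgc
JDP2 (chr14:75427980-75428021, plus strand): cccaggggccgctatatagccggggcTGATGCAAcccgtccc
CEBPG (chr19:33374045-33374104, plus strand): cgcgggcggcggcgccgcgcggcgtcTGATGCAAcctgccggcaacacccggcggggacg
IARS (chr9:92293698-92293736, minus strand): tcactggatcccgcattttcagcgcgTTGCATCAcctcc

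In these 6 promoters the core began 68 bases before the annotated start in ASNS, 209 in CHAC1, 97 in SLC1A5, 16 in JDP2, 42 in CEBPG and 13 in IARS. AARS, GOT1 and MTHFD1L held the other 3. A match is only a run of letters, binding was not measured in these files, and genes without a match may hold the site outside the 250 bases searched. TGACGTGG, a core of the unfolded protein response element, lay in 0 of the 35 promoters, in 0.45% of all genes called higher and in 0.964% of tested genes. The antioxidant response element core TGACNNNGC, to which NRF2 binds, lay in 3 of the 6 called NRF2 genes with a promoter, against 15.9% of tested genes. These shares carry no test. TGACGTGG followed by C also reads as TGACNNNGC, and no run of letters can read as TGATGNAA and as either of these in the same place.

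The ER chaperones held calls in both directions. They are the classical targets of the other branches of the unfolded protein response, which run through ATF6 and XBP1. Of 20 tested, 2 were called higher and 3 lower (median -0.09; 5 higher and 8 lower at an unadjusted p under 0.05). HSPA5 (BiP), the main ER chaperone, had 165, 168, 169 and 176 FPKM in H2AZ libraries, against 197 and 175 in sgNeg4 and did not pass (-0.13 ± 0.10, adjusted p = 0.481). HSP90B1 (GRP94) had 454, 435, 452 and 502 FPKM, against 843 and 646, and was lower (-0.68 ± 0.14, adjusted p = 0.0178). All 4 of its H2AZ values lay below both controls, as in every gene called lower. The disulfide isomerases PDIA4 (-0.41 ± 0.09) and PDIA6 (-0.41 ± 0.10) were lower as well, while PDIA3 (-0.42 ± 0.15, adjusted p = 0.15) and CALR (-0.38 ± 0.15, adjusted p = 0.169) did not pass. HERPUD1, a degradation factor that is also an ATF4 target, rose by 0.61 ± 0.11 and the cochaperone DNAJB9 by 0.43 ± 0.10. XBP1 lay just outside the threshold (0.36 ± 0.09, adjusted p = 0.0507). The counts on this list were 4 higher and 3 lower without sgH2AZ_1 replicate 1, 1 and 0 without sgH2AZ_1 replicate 2 or without sgH2AZ_2 replicate 1, 1 and 1 without sgH2AZ_2 replicate 2, 2 and 1 without sgNeg4 replicate 1, and 1 and 7 without sgNeg4 replicate 2. Either guide's libraries alone gave 0 calls.

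Part of the NRF2 oxidative stress program was called higher. NRF2 is a transcription factor that is stabilised by oxidants and drives glutathione, thioredoxin, heme and NADPH enzymes. Of 16 tested targets 8 were called higher and 0 lower (median 0.53; 12 higher and 0 lower at an unadjusted p under 0.05). HMOX1, which breaks down heme and was the largest rise of all named genes, had 98.7, 106, 112 and 99.7 FPKM in H2AZ libraries, against 32.0 and 22.4 in sgNeg4 (1.92 ± 0.13, adjusted p = 7.67e-05). OSGIN1 (0.95 ± 0.12), the thioredoxin reductase TXNRD1 (0.92 ± 0.14), the glutathione synthesis subunits GCLM (0.85 ± 0.12) and GCLC (0.53 ± 0.13), SRXN1 (0.81 ± 0.09), which repairs peroxiredoxins, and PGD (0.54 ± 0.10), an NADPH source, rose. The ferritin heavy chain FTH1 was just inside the threshold (0.78 ± 0.20, adjusted p = 0.0497) and FTL outside it (0.57 ± 0.21, adjusted p = 0.149), and both have many near-identical pseudogenes that can share their reads. NQO1, a standard NRF2 target, had 386, 374, 358 and 390 FPKM, against 310 and 222. All were higher than the controls, as in 13.4% of all tested genes and in 14 of the 16 on this list, but NQO1 was outside the threshold (0.52 ± 0.14, limma adjusted p = 0.0555). The glutathione transferase MGST1, outside this list, rose by 1.31 ± 0.10. The list's count was 5 without sgH2AZ_1 replicate 2 or without sgH2AZ_2 replicate 2, 3 with the sgH2AZ_1 libraries only and 5 with the sgH2AZ_2 libraries only.

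Of 15 tested collagen genes 9 were called lower and 0 higher, all 15 had a change below 0, and the list median was -0.58 (11 lower and 0 higher at an unadjusted p under 0.05). The fibrillar chain COL1A2 had 104, 90.7, 86.8 and 89.3 FPKM in H2AZ libraries, against 143 and 167 in sgNeg4 (-0.74 ± 0.11, adjusted p = 0.00453), and its partner COL1A1 had 255, 209, 206 and 187 FPKM, against 303 and 362 (-0.64 ± 0.14). COL3A1, low in this line, had 0.519, 0.709, 0.466 and 0.551 FPKM, against 1.88 and 2.60 (-1.05 ± 0.15, limma adjusted p = 0.00402). It passed the filter only through sgNeg4, so its call, though counted among the 9, does not support a fall. As in every called gene, the groups did not overlap in COL1A2, COL1A1 and COL3A1. The basement membrane chains COL4A1 (-0.61 ± 0.11), COL4A2 (-0.56 ± 0.12) and COL18A1 (-0.81 ± 0.14), the transmembrane collagens COL23A1 (-1.11 ± 0.15) and COL13A1 (-0.63 ± 0.11) and COL12A1 (-0.58 ± 0.12) were the others called. The count was 6 without sgH2AZ_1 replicate 2, without sgH2AZ_2 replicate 1 or without sgNeg4 replicate 2. It was 1 with the sgH2AZ_1 libraries only and 4 with the sgH2AZ_2 libraries only.

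Other matrix genes moved in both directions, with 3 of 26 called higher and 6 lower (median -0.12). In all 34.6% were called, against 6.02% over all tested genes. TIMP3, a matrix-bound inhibitor of metalloproteinases, had 23.5, 21.3, 22.1 and 24.7 FPKM in H2AZ libraries, against 46.1 and 43.9 in sgNeg4 (-0.95 ± 0.09, adjusted p = 0.000606). SPARC (-0.64 ± 0.12), FBLN1 (-0.63 ± 0.14), the gelatinase MMP2 (-0.51 ± 0.12), the laminin chain LAMB1 (-0.50 ± 0.10) and LOXL2 (-0.41 ± 0.10) were lower. The collagenase MMP1 was higher, at 33.0, 39.3, 46.7 and 51.4 FPKM, against 21.7 and 21.0 (0.95 ± 0.16, adjusted p = 0.00749), as was the collagen cross-linking enzyme LOX (0.84 ± 0.11). Without sgH2AZ_1 replicate 2 or without sgH2AZ_2 replicate 1 the counts were 2 higher and 1 lower, and without sgH2AZ_2 replicate 2 they were 2 and 2.

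The 20 largest falls included the serpin SERPINF1 and the complement protein C7. Of 14 serpin and complement genes tested, 6 were called lower and 0 higher (median -0.38; 9 lower and 1 higher at an unadjusted p under 0.05). The called share was 42.9%, against 6.02% over all tested genes. SERPINF1, the anti-angiogenic factor PEDF, had 8.65, 6.97, 7.76 and 6.91 FPKM in H2AZ libraries, against 34.2 and 24.3 in sgNeg4 (-1.81 ± 0.14, adjusted p = 0.000144). C7, a component of the membrane attack complex, had 2.19, 1.80, 1.90 and 2.19 FPKM, against 6.82 and 7.61 (-1.44 ± 0.12). SERPINI1 (neuroserpin) had 8.57, 9.10, 8.87 and 9.92 FPKM, against 21.3 and 18.6 (-1.05 ± 0.10). In these 3 every knockout library lay far below the lower control. The complement regulators CFI (-1.01 ± 0.13), CD55 (-0.80 ± 0.11) and CLU (-0.64 ± 0.13) were also lower. CFI had 0.623, 0.562, 0.507 and 0.555 FPKM in H2AZ libraries, against 2.02 and 2.25 in sgNeg4. It passed the filter only through sgNeg4, so its call, though counted among the 6 and in the 42.9%, does not support a fall. Leaving out 1 library at a time gave 5 to 8 lower calls.

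The other large falls came from genes of varied function. SCG2, a secretogranin of neuroendocrine granules, had 3.53, 3.22, 3.55 and 4.69 FPKM in H2AZ libraries, against 18.4 and 14.7 in sgNeg4 (-1.89 ± 0.15, adjusted p = 0.000123). CYB5R2, a cytochrome b5 reductase, had 5.39, 3.59, 3.54 and 4.71 FPKM, against 18.6 and 12 (-1.6 ± 0.19). KIAA0040 had 10.7, 9.40, 10.1 and 9.77 FPKM, against 29.6 and 28.9 (-1.46 ± 0.09). In all 3 the groups were wide apart. The metalloprotease ADAM19 had 76.0, 65.4, 67.1 and 68.6 FPKM, against 161 and 181 (-1.29 ± 0.10), and the LIM-only transcription cofactor LMO2 had 7.99, 5.76, 5.22 and 7.30, against 20.8 and 16.9 (-1.40 ± 0.16). The cell adhesion gene CADM4 (-1.36 ± 0.15), the tubulin-binding TPPP3 (-1.32 ± 0.24), the neuropeptide precursor PMCH (-1.24 ± 0.17), GCHFR (-1.23 ± 0.16), which regulates tetrahydrobiopterin synthesis, the calmodulin-binding PCP4 (-1.21 ± 0.25), the coactivator CITED4 (-1.16 ± 0.19), TSPAN13 (-1.16 ± 0.10), IQCD (-1.15 ± 0.20) and CA11 (-1.14 ± 0.15) were the others outside the lists described. TPPP3 lost its call without sgNeg4 replicate 1, and PCP4 lost it without sgNeg4 replicate 1 or without sgH2AZ_1 replicate 2.

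Besides the stress genes, the largest rises held EDN1 (endothelin 1), at 10.6, 12.1, 13.1 and 11.4 FPKM in H2AZ libraries, against 3.40 and 2.95 in sgNeg4 (1.61 ± 0.12, adjusted p = 8.79e-05). NNMT, which methylates nicotinamide, had 6.82, 4.46, 4.86 and 4.96 FPKM, against 1.83 and 0.783 (1.47 ± 0.20). The receptor GPR1 (1.34 ± 0.13), the membrane protein SERINC2 (1.20 ± 0.17) and R-cadherin CDH4 (1.18 ± 0.14) were also among the 20 largest rises and sit on none of the lists, as do PCK2 and MGST1, given above. As in every called gene, the groups of EDN1, NNMT, GPR1, SERINC2 and CDH4 did not overlap.

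Interferon-stimulated genes were lower where they were called. Of 23 tested, 5 were called lower and 0 higher, and the list median was -0.29 (11 lower and 0 higher at an unadjusted p under 0.05). The called share was 21.7%, against 6.02% over all tested genes. BST2 (tetherin), which holds budding viruses to the cell, had 4.15, 2.77, 2.5 and 2.74 FPKM in H2AZ libraries, against 11.4 and 5.82 in sgNeg4 (-1.20 ± 0.23, adjusted p = 0.0145). ISG15, a ubiquitin-like modifier, had 29.4, 29.7, 24.3 and 25.8 FPKM, against 40.6 and 38.4 (-0.52 ± 0.11). IFI6 (-0.97 ± 0.23), IFIT1 (-0.66 ± 0.15) and HERC6 (-0.56 ± 0.14) were the other 3, and IFITM3 did not pass (-0.80 ± 0.23, adjusted p = 0.0739). Of 14 MHC class I and antigen presentation genes the peptide-trimming enzyme ERAP2 was called (-0.45 ± 0.09), a share of 7.14% near the 6.02% over all tested genes. The BST2 call was lost without sgNeg4 replicate 1. The interferon count was 3 without sgH2AZ_1 replicate 2 and 1 without sgH2AZ_2 replicate 1, without sgH2AZ_2 replicate 2 or without sgNeg4 replicate 1, and the MHC count was 0 without sgH2AZ_1 replicate 2 or without sgH2AZ_2 replicate 1.

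**Figure D4:**
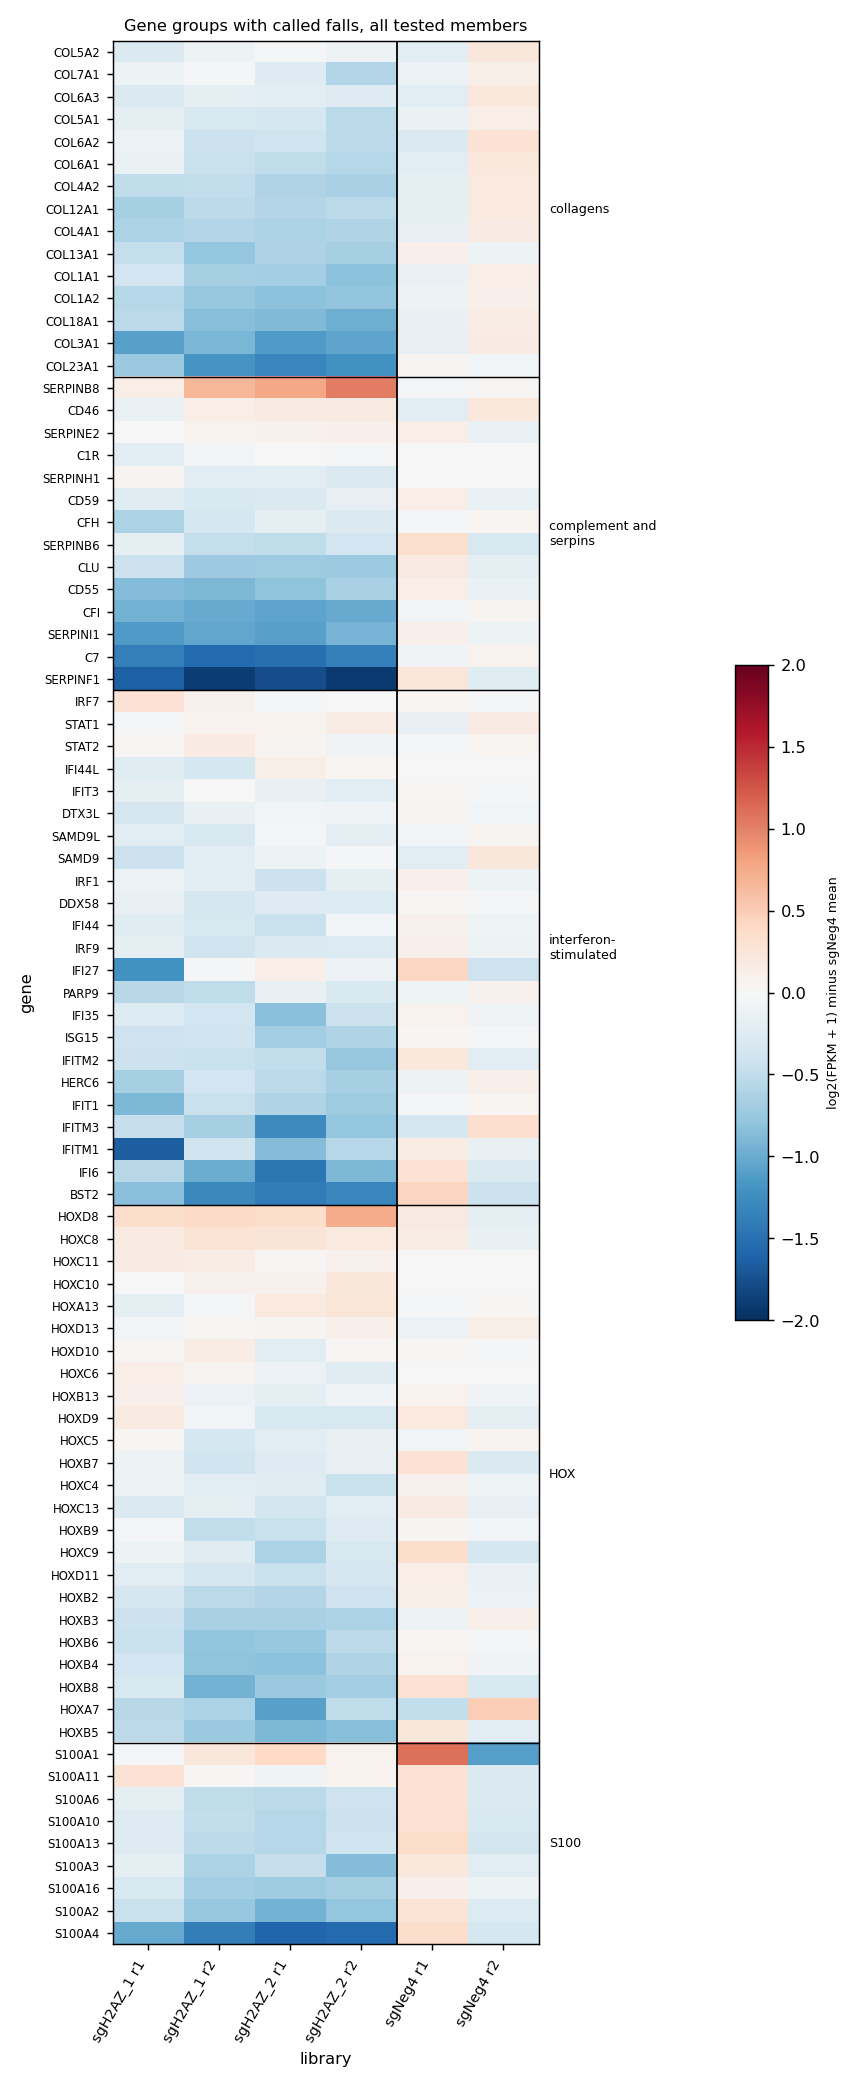
Log2(FPKM + 1) minus the sgNeg4 mean (red higher, blue lower) for every tested collagen, complement and serpin, interferon-stimulated, HOX and S100 gene; columns are the 4 H2AZ libraries and then the 2 sgNeg4 libraries. The H2AZ columns are blue through the collagens, whose median was -0.58, and strongly so at SERPINF1 (-1.81) and S100A4 (-1.38), while several interferon and S100 genes also differ between the 2 sgNeg4 libraries.

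HOX genes mark position along the body axis. Of 24 tested, 5 were called lower and 0 higher (9 lower and 1 higher at an unadjusted p under 0.05), and the 5 were the neighbours HOXB2 to HOXB6. The called share was 20.8%, against 6.02% over all tested genes. Clusters were not compared by a test. HOXB3 had 77.7, 66.3, 66.6 and 67.4 FPKM in H2AZ libraries, against 97.4 and 113 in sgNeg4 (-0.59 ± 0.11, adjusted p = 0.011). HOXB5 had 11, 9.36, 8.35 and 8.60 FPKM, against 19.3 and 13.8 (-0.75 ± 0.15). HOXB4 (-0.65 ± 0.13), HOXB6 (-0.63 ± 0.12) and HOXB2 (-0.47 ± 0.11) were the other 3. Further along, HOXB7 (-0.23, adjusted p = 0.431), HOXB8 (-0.68, adjusted p = 0.0791) and HOXB9 (-0.31, adjusted p = 0.229) did not pass, and whether they differ from HOXB2 to HOXB6 was not tested. The list's count was 3 without any one of sgH2AZ_1 replicate 2, sgH2AZ_2 replicate 1 or sgH2AZ_2 replicate 2, 2 without sgNeg4 replicate 1, 0 with the sgH2AZ_1 libraries only and 9 without sgNeg4 replicate 2.

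S100 genes encode small calcium-binding proteins. S100A4, a marker of mesenchymal and invasive cells, had 216, 167, 144 and 148 FPKM in H2AZ libraries, against 557 and 340 in sgNeg4 (-1.38 ± 0.21, adjusted p = 0.00491). S100A2 (-0.73 ± 0.17) and S100A16 (-0.59 ± 0.14) were also lower, 3 of 9 tested in all (33.3%, against 6.02% over all tested genes), and the sgNeg4 replicates lay far apart in this family. The count was 4 without sgH2AZ_1 replicate 1 and 1 without any one of the other H2AZ libraries. The list median of -0.44 moved to -0.13 without sgNeg4 replicate 1 and to -0.75 without sgNeg4 replicate 2, so its size hangs on single control libraries. Of 11 tested neural progenitor and glioma identity genes 2 were lower. SOX2, a stem cell transcription factor, had 51.0, 40.0, 44.2 and 43.3 FPKM, against 70.5 and 79.0 (-0.73 ± 0.11, adjusted p = 0.00491), and SALL2 had 0.579, 0.635, 0.307 and 0.516, against 2.08 and 1.87 (-0.98 ± 0.15). SALL2 passed the filter only through sgNeg4, so its call, though counted among the 2, does not support a fall. The groups were apart for both genes, as for every called gene.

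Marker sums of other cell types rested on few genes. The 6 epithelial markers summed to 2.80 to 3.56 FPKM in the H2AZ libraries, against 1.04 and 1.07 in sgNeg4, with CDH1 and KRT5 at 0 in all 6, and the difference lay in the splicing factor ESRP1 (2.05, 2.14, 1.78 and 2.42 FPKM, against 0.428 and 0.258; 1.20 ± 0.14, adjusted p = 0.00172). ESRP1 passed the filter only through the H2AZ libraries, so its call does not support a rise. The 7 neuronal markers summed to 28.4 to 31.7 FPKM, against 34.8 and 39.5, and the neurite protein STMN2 was lower (-0.71 ± 0.13), a call lost without sgNeg4 replicate 1. Lymphocyte markers summed to at most 0.399 FPKM, against at most 0.459, and endothelial markers to at most 1.80, against at most 1.74. Oligodendrocyte markers (45.0 to 50.7 FPKM, against 48.1 and 53) and myeloid markers (22.1 to 24.1, against 25.5 and 27.2) each had 1 member reaching 1 FPKM, with MOG, MAG, SOX10 and AIF1 at 0 throughout.

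Signalling genes gave small, mixed sets of calls. Among 17 YAP/TEAD targets, read-outs of the Hippo pathway, 3 were called higher and 1 lower (median 0.27; 10 higher and 1 lower at an unadjusted p under 0.05). CYR61, a matricellular protein, had 113, 118, 104 and 110 FPKM in H2AZ libraries, against 68.3 and 60.4 in sgNeg4 (0.78 ± 0.10, adjusted p = 0.00207). AJUBA (0.73 ± 0.09) and AMOTL2 (0.52 ± 0.11), both feedback regulators of the pathway, rose, whereas CTGF did not pass (0.36 ± 0.10, adjusted p = 0.0728). The higher count was 2 without any one of sgH2AZ_1 replicate 2, sgH2AZ_2 replicate 1, sgH2AZ_2 replicate 2 or sgNeg4 replicate 1 and 8 without sgNeg4 replicate 2.

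Of 20 TGF-beta, activin and BMP pathway genes 1 was called higher and 3 lower (median 0.06). Follistatin (FST), a secreted trap for activins, had 92.7, 101, 98.5 and 96.5 FPKM in H2AZ libraries, against 46.1 and 37.4 in sgNeg4 (1.21 ± 0.10, adjusted p = 0.000242). The ligands TGFB2 (21.2, 17.5, 22.7 and 21.8 FPKM, against 36.9 and 39.5; -0.85 ± 0.11) and BMP4 (1.93, 1.77, 1.21 and 2.15, against 3.87 and 5.95; -1.09 ± 0.18) were lower, as was the induced matrix protein TGFBI (-0.72 ± 0.15). The BMP target ID1 did not pass (0.49 ± 0.13, adjusted p = 0.0512). Without sgH2AZ_1 replicate 2, sgH2AZ_2 replicate 1 or sgH2AZ_2 replicate 2 the lower count was 2.

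Cytokine and chemokine genes split by member, with 3 of 13 called higher and 2 lower (median -0.10). The neutrophil chemokines CXCL8 (26.2, 33.4, 32.4 and 33.6 FPKM in H2AZ libraries, against 17.7 and 17.1 in sgNeg4; 0.81 ± 0.12) and CXCL3 (0.93 ± 0.15) and the cytokine IL1B (0.58 ± 0.11) rose. CXCL3 has near-identical neighbours that can share its reads. The monocyte chemokine CCL2 (438, 393, 403 and 438 FPKM, against 760 and 587; -0.68 ± 0.13) and CXCL12 (-0.71 ± 0.13) were lower, and the lower count was 1 without any one of sgH2AZ_1 replicate 2, sgH2AZ_2 replicate 1, sgH2AZ_2 replicate 2 or sgNeg4 replicate 1. Of 17 immediate early genes MYC was called (5.88%, near the 6.02% over all tested genes), at 41.5, 42.7, 42.7 and 42.6 FPKM, against 29.9 and 30.7 (0.47 ± 0.08, adjusted p = 0.0105), and without sgH2AZ_1 replicate 2 there were 0 higher and 1 lower. None of the 6 IGF binding protein genes was called by limma (1 lower at an unadjusted p under 0.05), and 1 was lower without either sgNeg4 library.

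In sterol synthesis 4 of 22 tested genes were called higher and 0 lower (median 0.26; 12 higher and 0 lower at an unadjusted p under 0.05). SQLE, which oxidises squalene, had 45.2 to 51.9 FPKM in H2AZ libraries, against 32.2 and 37.0 in sgNeg4 (0.51 ± 0.10, adjusted p = 0.0159). MVD (0.63 ± 0.15), the sterol sensor INSIG1 (0.52 ± 0.09) and CYP51A1 (0.42 ± 0.10) were the other 3. The count was 1 without sgH2AZ_1 replicate 2 or without sgH2AZ_2 replicate 1, 2 without sgH2AZ_2 replicate 2 and 7 without sgNeg4 replicate 2. In fatty acid synthesis the desaturase FADS1 rose by 0.56 ± 0.10 and the elongase ELOVL5 fell by 0.53 (SE 0.09), 2 of 10 tested, against 4 higher and 1 lower without sgNeg4 replicate 2. Of 24 hypoxia and glycolysis genes 2 were higher, VEGFA and ADM (0.57 ± 0.10), and 2 lower, the glucose carrier SLC2A1 (-0.51 ± 0.11) and NDRG1 (-0.45 ± 0.11), and the lower pair was not called without sgH2AZ_1 replicate 2, sgH2AZ_2 replicate 1 or sgH2AZ_2 replicate 2, and 1 gene was lower without sgNeg4 replicate 1.

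Of 15 heat shock genes the mitochondrial HSPA9 was called (6.67%, near the 6.02% over all tested genes; 2 genes without sgNeg4 replicate 1), at 222, 243, 249 and 251 FPKM in H2AZ libraries, against 148 and 155 in sgNeg4 (0.67 ± 0.10, adjusted p = 0.0046). The metallothionein MT2A had 1370, 1150, 1234 and 1116 FPKM, against 741 and 673 (0.78 ± 0.14, adjusted p = 0.0109), although its reads can be shared with paralogs. Of 23 lysosome and autophagy genes the autophagy receptor SQSTM1 (0.61 ± 0.11) and the cholesterol exporter NPC1 (0.46 ± 0.11) were higher, and 0 were higher without sgH2AZ_1 replicate 2 or without sgH2AZ_2 replicate 2, and 1 without sgH2AZ_2 replicate 1 or without sgNeg4 replicate 1.

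The p53 target list held 2 higher and 1 lower calls among 44 tested, a share of 6.82% near the 6.02% over all tested genes (median 0.15; 10 higher and 2 lower at an unadjusted p under 0.05). The 2 were GDF15 and SESN2, which also stand on the stress response list. CDKN1A (p21), the arrest gene, had 358, 316, 324 and 321 FPKM in H2AZ libraries, against 299 and 295 in sgNeg4 (0.15 ± 0.10, adjusted p = 0.456). MDM2, the p53 inhibitor, had 37.0, 44.4, 45.7 and 44.6 FPKM, against 33.8 and 32.6 (0.36 ± 0.11, adjusted p = 0.0803). In both genes all 4 knockout values lay above both controls, as in 13.4% of all tested genes, and neither passed the test. On this list 15 of the 44 lay wholly above both controls and 5 wholly below, against 13.4% and 15.4% of all tested genes. Changes were above 0 in 32 and below 0 in 12. FUCA1, a lysosomal fucosidase, was the one called lower (1.76, 2.03, 2.88 and 2.18 FPKM, against 5.92 and 4.72; -0.98 ± 0.16). The higher count was 5 without sgH2AZ_1 replicate 1, and the lower count 2 without sgNeg4 replicate 2.

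Cell cycle and housekeeping genes gave few calls. Of 35 G2/M and mitosis genes limma called 0 (0 higher and 4 lower at an unadjusted p under 0.05; median -0.05), and of 34 G1/S and replication genes it called the polymerase epsilon subunit POLE2 only (-0.64 ± 0.14, adjusted p = 0.0289), which lost the call without sgH2AZ_2 replicate 1 or without sgH2AZ_2 replicate 2. It called 0 of 30 proteasome subunits (1 at an unadjusted p under 0.05), 0 of 64 cytosolic ribosomal proteins (1) and 0 of 58 oxidative phosphorylation subunits (1 higher and 4 lower). Without sgNeg4 replicate 2 these counts were 3 lower for G2/M, 4 for the proteasome, 5 for ribosomal proteins and 12 for oxidative phosphorylation, and without sgNeg4 replicate 1 they were 2 higher for ribosomal proteins. The list medians moved with the sgNeg4 library left out, between -0.34 and 0.05 for oxidative phosphorylation and between -0.28 and 0.25 for ribosomal proteins, so no direction is given for them.

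**Figure D5:**
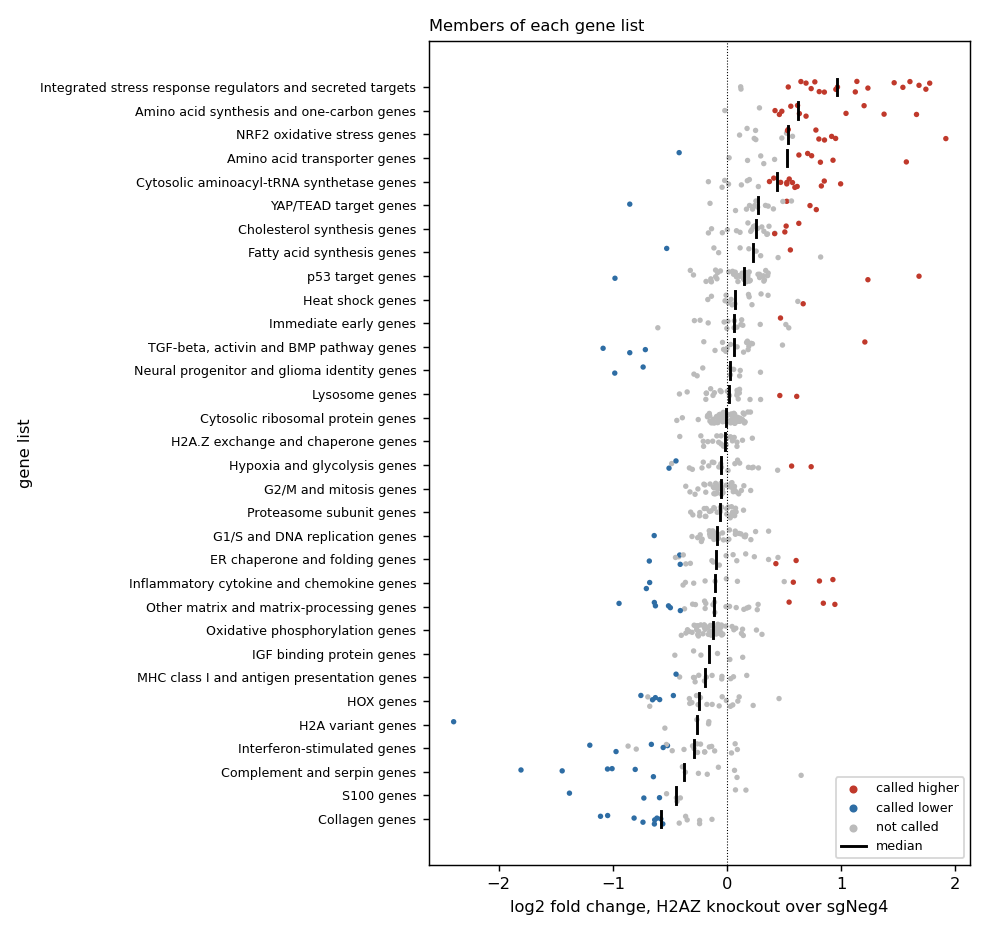
Log2 fold change of H2AZ knockout over sgNeg4 for each tested member of each gene list with 5 or more tested members, ordered by the list median (black bar); red points were called higher, blue lower, grey not called. Stress response, amino acid and NRF2 lists sit at the top with medians of 0.44 to 0.96, and collagens at the bottom with -0.58.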

How the data were processed

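The authors deposited 1 table of FPKM values; per the submitters' processing notes TopHat2, Cufflinks, Cuffdiff and hg19 were used, without versions or roles, and per the labels' protocols the libraries were strand-specific and polyA-selected. Whether counting used strand, and how reads of near-identical genes were assigned, is not given in the sources used here. Columns were matched to samples by name, and 0 columns belonged to no sample. The fragments behind 1 FPKM were read from the steps between low values. Values were analysed as log2(FPKM + 1), which understates changes of low genes, with limma 3.58.1 in R 4.3.3 (empirical Bayes with trend, two-sided, 1 level for both guides, or 1 level per guide for guide contrasts), tested on simulated data. Lengths came from GENCODE and were found for 99.8% of tested genes; promoters came from RefSeq (GRCh38.p14) and were searched with Python 3.11.15. Named genes were the H2A.Z genes, the 20 largest called rises and falls with a mean of at least 5 FPKM in the higher group, up to 5 called members per list with the smallest adjusted p, and other list members chosen for their role, with values in view. The members and lists were chosen with earlier results of these data known, so they support nothing independently. Some genes are not reported here.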

Additional observations from a re-analysis of the deposited data

Results flagged for a closer look

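Among the 4 H2AZ libraries, 15 of 173 named genes had 1 library whose gap to its nearest neighbour exceeded Dixon's 95% critical value, taken as a share of the group's range. Chance alone flags about 1 gene in 20, or 8.65 of these. In 11 of the 15 the library was sgH2AZ_1 replicate 1, which also stood apart by transcript length, and the part of length in these values was not tested. In that library BST2 had 4.15 FPKM, S100A16 314, MMP2 64.1, FBLN1 326, CLU 107 and HOXB3 77.7, each the highest of the 4. It had the lowest value in SLC38A1 (27.9 FPKM), CXCL8 (26.2), MYC (41.5), MDM2 (37.0) and NARS (63.8). In sgH2AZ_2 replicate 1 SLC2A1 had 20.7 FPKM, CXCL3 1.84 and DDIT3 153, each the lowest, and in sgH2AZ_1 replicate 2 DDIT4 had 30.6 FPKM, the lowest. Of these 15 genes MDM2 was not called, and the other 14 had all 4 H2AZ libraries on one side of sgNeg4, as every called gene had.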

How the results depend on the processing

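Of 152 named called genes, 54 were called under every alternative that tested them (50 under all 19) and 0 changed sign, and 75, these 54 included, lost the call under at most 1. H2AFV and HOXB7, which were not called, changed sign without sgNeg4 replicate 1, to 0.0072 and 0.055, and stood at -0.32 and -0.52 without sgNeg4 replicate 2. With libraries of guide 1 only, 134 genes were called (62 higher, 72 lower), and with guide 2 only 233 (91 and 142). Leaving out 1 library at a time gave 320 to 1183 calls (135 to 461 higher, 185 to 722 lower), 29 to 710 for sgH2AZ_1 (18 to 315, 9 to 395) and 39 to 1420 for sgH2AZ_2 (21 to 544, 18 to 876). Without sgNeg4 replicate 1, 52.5% of calls were higher, against 43.2% with all 6. With no filter on low values sgH2AZ_1 had 65 calls (36 higher, 29 lower) and sgH2AZ_2 had 92 (44 and 48). Requiring a change of 1 log2 unit left 35 higher and 48 lower. With the transcript length trend removed, an alternative added after the data were seen, 852 genes were called. The cause of these shifts was not tested. Same-numbered replicates deviated together in 1 of 3 pairs of groups (correlations of 0.31 for sgH2AZ_1 with sgNeg4, -0.28 for sgH2AZ_2 with sgNeg4 and -0.03 between the guides), so the numbers were not taken to pair the libraries; with a replicate block the calls were 727 in all, with 194 lower for sgH2AZ_1. At 4.28 to 7.48 fragments per kilobase at 1 FPKM, low genes are limited by depth.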
